A study of Ovis aries with 6 samples.

Results

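This account concerns 5 genes of fibroblast growth factor (FGF) signalling in sheep skin, the ligands FGF2, FGF7, FGF10 and FGF18 and the feedback inhibitor SPRY4. They were measured by 11 probes, each a short sequence fixed to the array, of the 15008 distinct probes on an Agilent sheep gene expression microarray. The members were taken by gene name, and 8 probes, those of FGF2, FGF7 and FGF10, matched RefSeq by accession. The FGF18 probe and the 2 SPRY4 probes were named from the study's annotation of probes that it had itself called on these arrays, so their calls here are no independent evidence of a direction. Body side skin, which bears wool, was compared with groin skin, which does not, to ask which genes may take part in wool growth. All samples were full-thickness skin of Aohan fine wool sheep aged 16 months, taken in winter from 1 ram and 2 ewes with a common father, with 3 arrays for each skin area and no treatment named. Each animal gave both areas, but the labels do not say which arrays belong to which animal.

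FGF ligands are secreted proteins that bind receptor tyrosine kinases together with heparan sulphate. FGF7 and FGF10 are made mainly by mesenchymal cells, in skin by dermal cells, and act on epithelial cells through a splice form of FGFR2. FGF18 is known from the hair follicle, where it is associated with the resting phase of the hair cycle, and FGF2 acts on fibroblasts and endothelial cells. Sprouty proteins such as SPRY4 are induced by receptor tyrosine kinase signalling and inhibit the Ras to MAP kinase branch of it. In whole skin, fewer cells of a type and less RNA per cell cannot be told apart.

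Groin arrays were brighter than body side arrays. The share of spots well above background, as flagged by the scanner software, was 79.6% to 92.3% on groin arrays, the highest on groin replicate 1, and 74.1% to 76.0% on body side arrays. Median signals were 179.9 to 193 and 97.5 to 129.8 scanner units. Hair keratins KRT25, KRT27 and K38 were well above background on all 6 arrays, in groin skin too, and none of the keratinocyte or endothelial markers looked for was identified by name. The arrays were quantile normalized on the log2 scale, and fold changes are body side over groin from limma over 13924 probes. Calling a probe required a 2-fold difference or more together with an adjusted p (Benjamini-Hochberg) under 0.05. Where 3 signals of a skin area follow each other, they belong to replicates 1, 2 and 3 in that order. The number of arrays limits the precision, and the p-values measure the spread between these 6 arrays. Without a block, the p-values treat the arrays as independent, although each animal gave both areas. At several members, replicates 2 and 3 of an area lay close together and apart from replicate 1, as for SPRY4 A_70_P068181 in groin skin (178, 343 and 346). FGF10 A_70_P012572 in groin skin did not show this (62.8, 58.3 and 71.3). Whether the 3 arrays of an area are independent of each other was not tested.

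FGF7, also named keratinocyte growth factor, was lower in body side than in groin skin by both probes followed here. The paper counts more FGF7 probes than these and reports only part of its FGF7 probes as less highly expressed. The signal of A_70_P029931 was 324, 425 and 428 in groin skin against 109, 95.8 and 111 in body side skin. The signal of A_70_P029932 was 131, 162 and 144.5 in groin skin and 26.8, 24.4 and 26.9 in body side skin. For both probes, every body side array lay below every groin array, a separation seen in 41.8% of all tested probes on these unnormalized signals and in 17.9% after normalization, where it also held for both.

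After normalization, the FGF7 probe A_70_P029931 had a mean log2 signal of 8.26 ± 0.18 (SD, n = 3) in groin and 7.11 ± 0.16 (SD, n = 3) in body side skin. The log2 difference came to -1.14 (standard error 0.17, adjusted p = 0.021 from limma), a 2.21-fold difference. The probe A_70_P029932 changed by -1.62 on the same scale (standard error 0.15, adjusted p = 0.0092 from limma), a 3.08-fold difference. Both were called as lower, as were 4.88% of all tested probes. Their log2 fold changes differed by 0.48, and the within-array ratio of the 2 probes did not overlap between areas (exact two-sided permutation test, p = 0.1, the smallest p that 3 against 3 arrays allow). This gap depended on the background treatment, since after normexp correction the values were -0.87 and -0.81 (adjusted p = 0.013 for both from limma). Neither probe was then called, their fold being under 2, and the share called over all probes was 3.20%.

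The spread of FGF7 among arrays of one area was small, and no single array set its fold change. With each array left out, the log2 fold change of A_70_P029931 lay between -1.25 and -1.05 and that of A_70_P029932 between -1.70 and -1.55. Both probes stayed called without groin replicate 1, where 7.10% of all probes were called, or body side replicate 1 (21.3%). Without groin replicate 2, groin replicate 3, body side replicate 2 or body side replicate 3, the adjusted p from limma was 0.103, 0.10, 0.089 and 0.086 for A_70_P029931 and 0.075, 0.078, 0.051 and 0.055 for A_70_P029932. Calls were lost across the array in these 4 fits, in which 0.101%, 0.0863%, 0.323% and 0.460% of all probes were called, so the loss is not particular to FGF7.

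**Figure D1:**
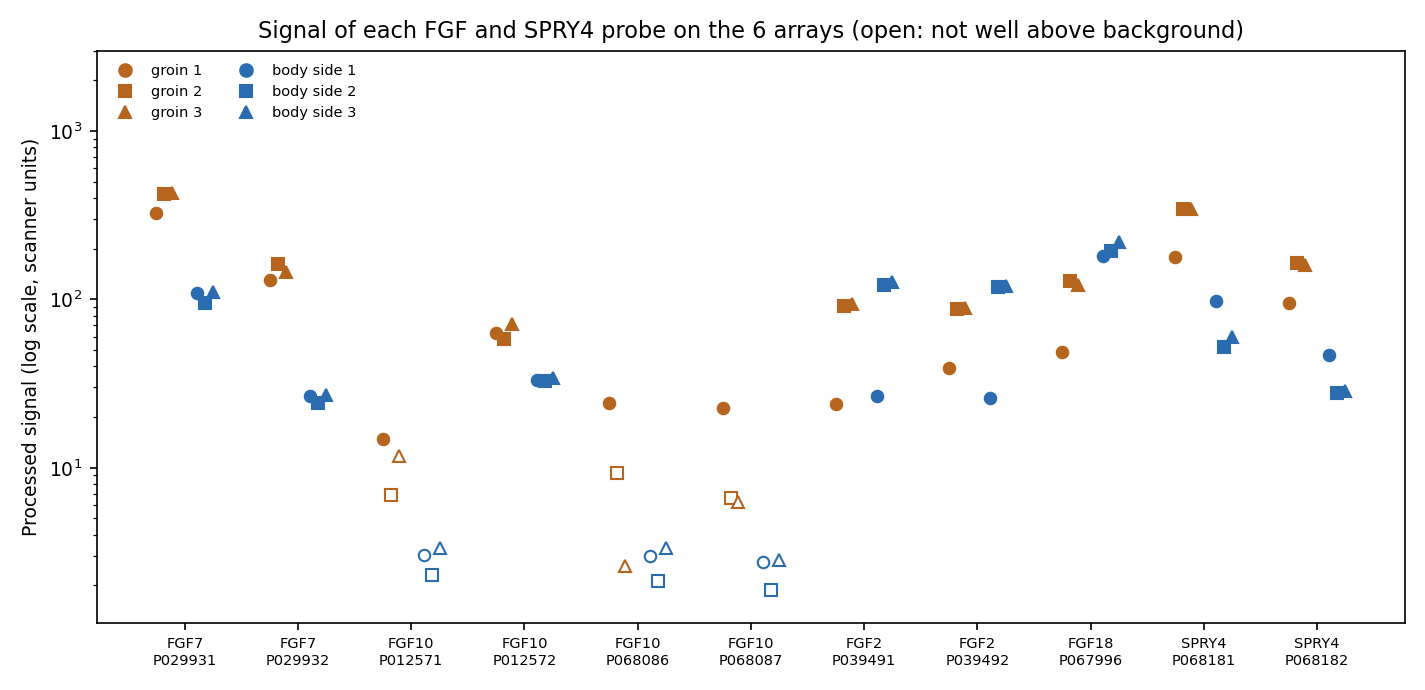
Processed signal, in scanner units on a log axis before normalization between arrays, of the 11 probes on the 3 groin (brown) and 3 body side (blue) arrays, with 1 marker shape for each replicate number and open markers where the spot was not well above background. FGF7 and SPRY4 lie lower and FGF18 higher on every body side array, while both FGF2 probes are low on replicate 1 of each area.

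FGF10, which shares its epithelial receptor with FGF7, was measured on all 6 arrays by 1 of its 4 probes. The signal of A_70_P012572 was 62.8, 58.3 and 71.3 in groin skin and 33.1, 32.8 and 34.2 in body side skin. Before normalization every body side array thus lay below every groin array, by 1.92-fold, a separation seen in 41.8% of all tested probes on these signals. The median of all tested probes was also lower in body side skin before normalization, by a log2 difference of -0.47.

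After quantile normalization the areas overlapped for this FGF10 probe, A_70_P012572. The log2 difference came to -0.079 (standard error 0.19, 95% interval -0.53 to 0.37, adjusted p = 0.78 from limma). Scaled to the 75th percentile of each array it was -0.50 (adjusted p = 0.077 from limma). The size of the FGF10 difference thus depended on the scaling, and no call was made under either. Between those scalings the median over all tested probes moved from 0.088 to -0.032.

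The other FGF10 probes, A_70_P012571, A_70_P068086 and A_70_P068087, were well above background on groin replicate 1 and on none of the other 5 arrays, with signals there of 14.8, 24.3 and 22.6 in that order of probes. On the other arrays their signals lay between 1.88 and 11.8. They entered the test through that 1 array, which also had the largest share of spots well above background. A_70_P068087 was called as lower (adjusted p = 0.026 from limma) and was not called with signals under 5 set to 5 (adjusted p = 0.14). No fold is read from these 3 probes.

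FGF18 had its higher level in body side skin, as measured by its only probe, A_70_P067996. Its signal was 48.9, 129 and 122 in groin skin against 182, 193 and 219 in body side skin. Every body side array lay above every groin array, as in 5.74% of all tested probes on these unnormalized signals and in 26.0% after normalization. Groin replicate 1 stood well below the other groin arrays.

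The mean log2 signal of FGF18 was 6.04 ± 0.87 (SD, n = 3) in groin and 7.98 ± 0.28 (SD, n = 3) in body side skin. This log2 difference of 1.94 (standard error 0.45, adjusted p = 0.041 from limma) was larger than that of 99.5% of the tested probes. It was called as higher, as were 3.53% of tested probes. Without groin replicate 1 the difference was 1.44 and was still called (adjusted p = 0.031 from limma), where 7.10% of all probes were called. Without body side replicate 1 it was 2.10 and was called (adjusted p = 0.032 from limma), where 21.3% of all probes were. Without groin replicate 2, groin replicate 3, body side replicate 2 or body side replicate 3 it lay between 1.86 and 2.21 and was not called (adjusted p from 0.105 to 0.139), in the fits that called under 0.5% of all probes. With the 75th percentile, where 8.26% of all probes were called, it was 1.55, with an adjusted p of 0.051. After normexp correction it was 1.13 and was called (adjusted p = 0.022 from limma).

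SPRY4, the feedback inhibitor, was lower on the body side by both of its probes. The signal of A_70_P068181 was 178, 343 and 346 in groin skin and 98.1, 52.0 and 59.9 in body side skin. The signal of A_70_P068182 was 94.9, 164 and 161 in groin skin and 47.0, 28.0 and 28.5 in body side skin. For both probes every body side array lay below every groin array, as in 41.8% of all tested probes on these unnormalized signals. After normalization this separation also held for both, as in 17.9% of tested probes. In both, groin replicate 1 was the lowest groin array and body side replicate 1 the highest body side array, so the arrays numbered 1 lay closest to each other.

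The log2 fold changes of SPRY4 were -1.25 (standard error 0.30, adjusted p = 0.044 from limma) for A_70_P068181 and -1.16 (standard error 0.27, adjusted p = 0.042 from limma) for A_70_P068182, or 2.38-fold and 2.23-fold. The probes gave like values, with a difference of 0.095 between their fold changes and overlapping areas for their ratio. Without groin replicate 1 the changes were -1.55 and -1.41, both called, where 7.10% of all probes were called. Without body side replicate 1 they were -1.40 and -1.29, both called, where 21.3% of all probes were. Without any 1 of the other 4 arrays the changes lay between -1.18 and -1.03 and were not called (adjusted p from 0.135 to 0.147), in the same fits that lost nearly all calls of the array. After normexp correction they were -0.84 (adjusted p = 0.046 from limma) and -0.67 (adjusted p = 0.069), not called.

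**Figure D2:**
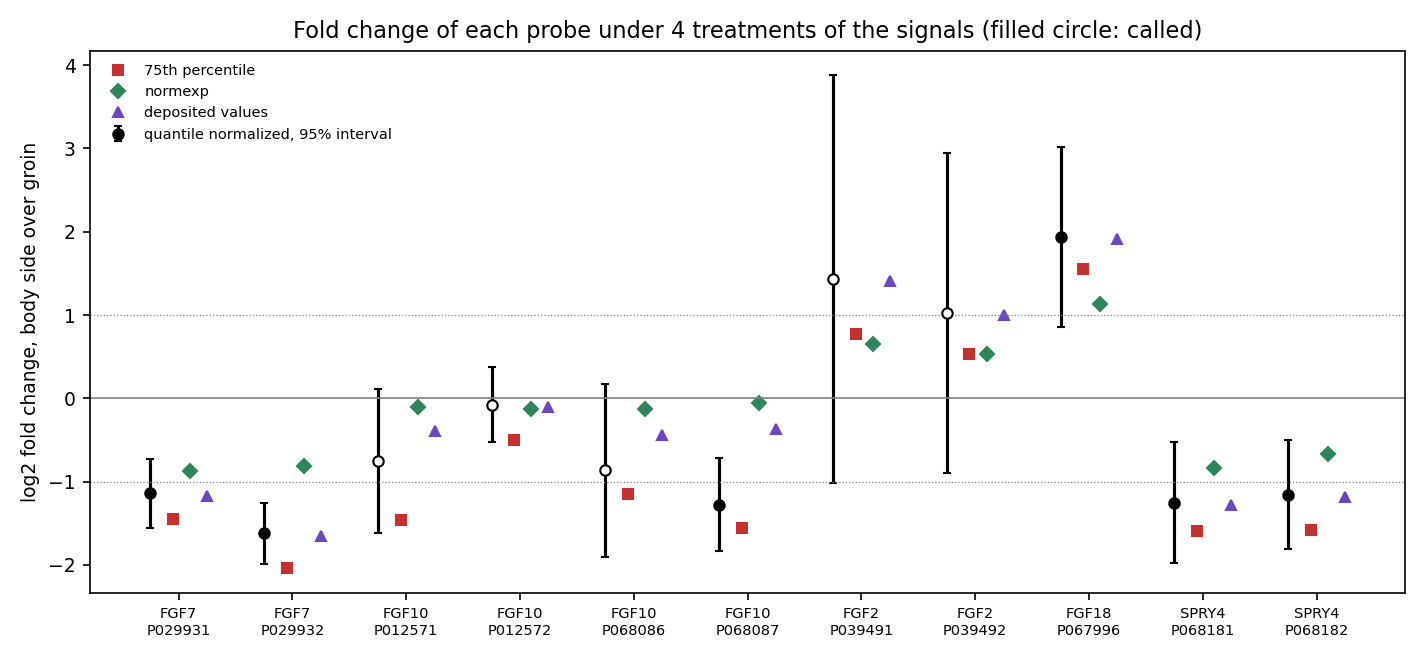
Log2 fold change, body side over groin, of each probe under quantile normalization (black circles with 95% intervals from limma, filled where called), under scaling to the 75th percentile (red squares), after normexp background correction (green diamonds) and from the authors' deposited log2 values (purple triangles), with dotted lines at a 2-fold difference. FGF7, SPRY4 and FGF18 kept their direction under all 4, and the FGF2 intervals span 0.

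FGF2 signals differed widely between arrays of one area. The probe A_70_P039491 had a signal of 24.0, 91.7 and 93.6 in groin skin against 26.6, 122 and 127 in body side skin. The probe A_70_P039492 had 39.1, 87.7 and 89.0 in groin skin and 25.9, 119 and 121 in body side skin. Replicate 1 was low in both areas and by both probes, and all of these spots were well above background.

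This FGF2 pattern was not that of a single spot. A_70_P039491 was spotted 5 times on each array, and those spots lay between 16.5 and 34.9 on groin replicate 1 and between 22.0 and 33.0 on body side replicate 1. On the other arrays the lowest of the spots was 83.9 and the highest 135. After normalization the arrays numbered 1 lay below each of the other 4 by at least 2.16-fold for A_70_P039491 and 2.12-fold for A_70_P039492. Of all tested probes, 0.402% had both arrays numbered 1 at least 2-fold below the other 4.

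Between areas, FGF2 did not pass the test. The log2 difference was 1.43 for A_70_P039491 (standard error 1.01, 95% interval -1.02 to 3.88, adjusted p = 0.34 from limma) and 1.03 for A_70_P039492 (standard error 0.79, 95% interval -0.89 to 2.94, adjusted p = 0.38 from limma). Without groin replicate 1 the values were 0.52 and 0.54 (adjusted p = 0.67 and 0.66), while the 75th percentile gave 0.77 and 0.54 and normexp correction 0.66 and 0.53. Without both arrays numbered 1, a setting chosen after the values were seen, the log2 fold changes were 1.35 (adjusted p = 0.0012 from limma) and 1.37 (adjusted p = 0.0014) over 2 arrays for each area, and both probes were called. In that fit 25.8% of 12297 tested probes were called. Without body side replicate 1 alone, A_70_P039492 was called at 1.86 (adjusted p = 0.042) and A_70_P039491 was not at 2.26 (adjusted p = 0.12), where 21.3% of probes were called. With array weights from limma both probes were called (log2 differences of 1.33 and 1.32), as were 24.2% of all probes.

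**Figure D3:**
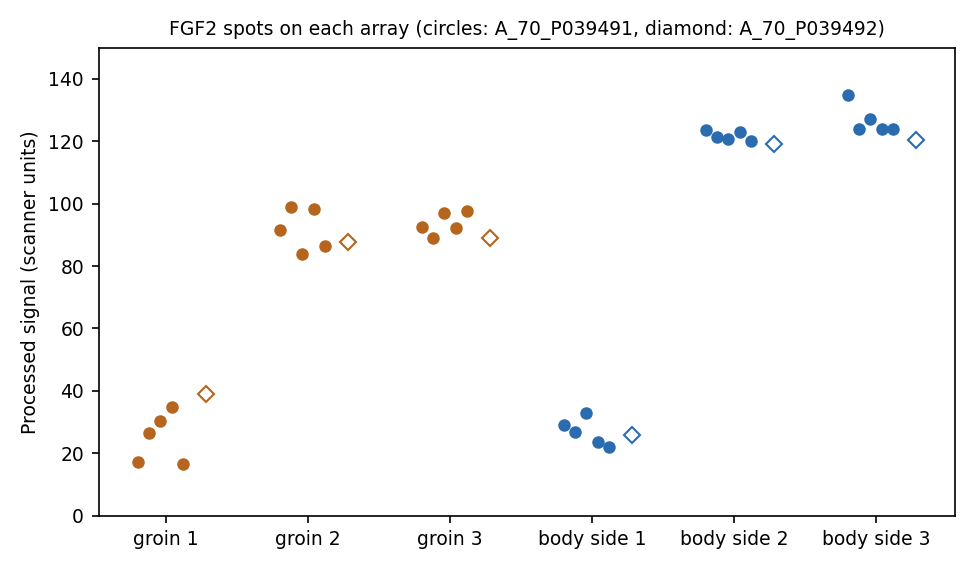
Processed signal of every FGF2 spot on each array, in scanner units before normalization, with circles for the 5 spots of A_70_P039491 and a diamond for the spot of A_70_P039492. All spots on groin replicate 1 and body side replicate 1 lie under 40 and all others above 80.

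In all, 6 of the 11 probes were called, 5 lower and 1 higher in body side skin, where 8.40% of all tested probes were called. The dim FGF10 probe is one of them. Among the 8 member probes well above background on all 6 arrays, 5 were called, 4 lower (FGF7 and SPRY4) and 1 higher (FGF18), beside 8.22% of all such probes in either direction, 4.07% lower and 4.16% higher. The FGF18 and SPRY4 probes were named from the study's own calls on these arrays, and the paper counts more FGF7 probes than those followed. The member counts are thus no measure of enrichment over these shares. The study's methods state that each RNA sample had a slide of its own, whereas all arrays carry 1 scan time and spot positions that place them in 2 rows and 3 columns, as on a shared slide. Positions are used here as read from the files. Row 1 held groin replicates 1 and 3 and body side replicate 2, and row 2 the other arrays. Within rows 1 and 2 the log2 differences were -1.02 and -1.28 for FGF7 A_70_P029931, -1.43 and -1.81 for FGF7 A_70_P029932, 2.36 and 1.33 for FGF18, -1.25 and -1.47 for SPRY4 A_70_P068181 and -1.04 and -1.41 for SPRY4 A_70_P068182. Only the middle column held both areas, groin replicate 3 and body side replicate 1. There the differences were -1.44 and -1.77 for FGF7, 1.15 for FGF18 and -1.27 and -1.15 for SPRY4, each in the direction of the full comparison, while FGF2 was at -1.18 and -1.16, opposite to it. With the row as a block in limma, none of these probes was called (adjusted p of 0.072 and 0.058 for FGF7, 0.094 for FGF18 and 0.080 and 0.085 for SPRY4), and 0.374% of all probes were. With the column as a block the adjusted p lay between 0.21 and 0.59, and limma called 0.00% of all probes, of which 1875 had an unadjusted p under 0.05. The lost calls are thus not particular to the members.

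Ratios between genes on the same array do not depend on a factor that scales all signals of that array, but they do depend on its background. The change of one gene could thus be set against that of another without a scaling between arrays. The level of such a ratio between different probes has no meaning, and only its difference between areas was read. FGF7 was taken as the mean of the probes followed here. The log2 ratio of FGF18 to FGF7 was -2.07, -1.03 and -1.03 in groin skin against 1.75, 2.0 and 2.0 in body side skin. On body side arrays the ratio was 9.81-fold higher (log2 difference of 3.29, exact two-sided permutation test, p = 0.1, the smallest p possible). This pair sets a gene called as higher against a gene called as lower on the same arrays. Its separation follows from those results and is no further evidence. On quantile normalized values the log2 difference was 3.32, and leaving out single arrays gave 2.90 to 3.54. After normexp background correction the log2 difference was 1.98.

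Of the 10 gene pairs compared in this way, 7 had ratios that did not overlap between areas on unnormalized signals, as did 46.4% of all pairs of probes measured on all 6 arrays. The ratio of FGF18 to SPRY4 was higher on every body side array, with a log2 difference of 3.14 between areas, and that of FGF10 A_70_P012572 to FGF18 was lower, at -2.05. The ratio of FGF7 to FGF10 was lower in body side skin by a log2 difference of -1.25, with 1.71, 2.17 and 1.80 on groin arrays and 0.71, 0.56 and 0.68 on body side arrays. FGF10 over SPRY4 was higher by 1.09 and FGF2 over FGF7 by 2.40. FGF2 over FGF18 was lower, at -0.89, but overlapped after normalization (exact permutation test, p = 0.5). The ratio of FGF7 to SPRY4 overlapped between areas and differed by -0.16, with an SD of 0.32 among groin arrays and 0.41 among body side arrays (exact permutation test, p = 0.7). For each pair without overlap on unnormalized signals the exact two-sided permutation test gave p = 0.1.

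**Figure D4:**
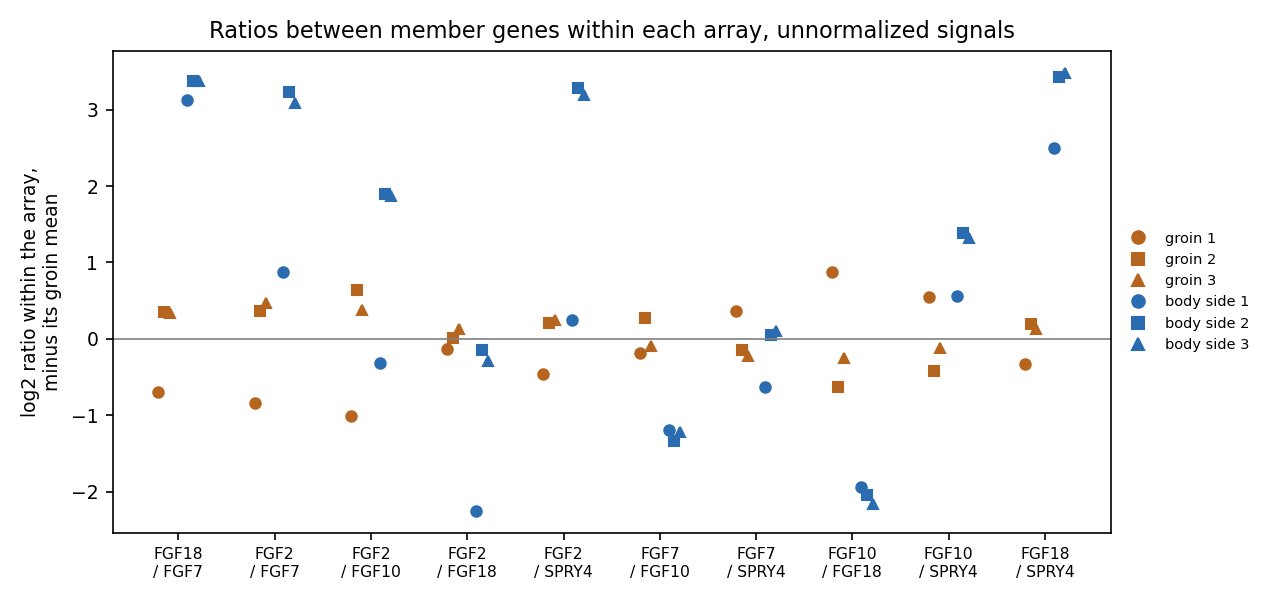
Log2 ratio of the unnormalized signals of 2 member genes on the same array, shown for 10 pairs with the groin mean of each ratio subtracted, so that 0 is the groin mean (brown, groin arrays and blue, body side arrays). FGF18 against FGF7 separates the areas by a log2 difference of 3.29, while FGF7 against SPRY4 overlaps.

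Other genes of the pathway could be followed only in part. Of 71 further ligand, receptor and signalling genes looked for, 1 had a probe with a RefSeq accession, the kinase AKT1, at a log2 fold change of -1.62 that was not called (adjusted p = 0.10 from limma). Its signal was 196, 275 and 269 in groin skin and 143, 25.9 and 26.4 in body side skin, so that body side replicate 1 stood with the groin arrays. A further 5 probes were named only by the study's annotation, which covers probes that the study itself called, so that their calls here are no independent evidence of a direction.

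The receptors among those probes were lower in body side skin. FGFR2, whose epithelial splice form binds FGF7 and FGF10, had a signal of 714, 707 and 722 in groin skin and 227, 130 and 125 in body side skin by A_70_P027296, which does not tell the splice forms apart here. Its log2 difference was -1.53 (standard error 0.19, adjusted p = 0.016 from limma). FGFR1, the main receptor of mesenchymal cells, had 623, 917 and 972 in groin skin and 253, 84.9 and 92.0 in body side skin by A_70_P058886, a 4.15-fold difference (adjusted p = 0.026 from limma). A second FGFR1 probe, A_70_P061536, was lower by 2.24-fold. The third, A_70_P061537, was well above background in groin skin alone, and its difference was at least 1.89-fold, the lowest signal well above background on each body side array standing in for its own. PIK3R1, a regulatory subunit of PI3 kinase, was lower by 2.66-fold.

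**Figure D5:**
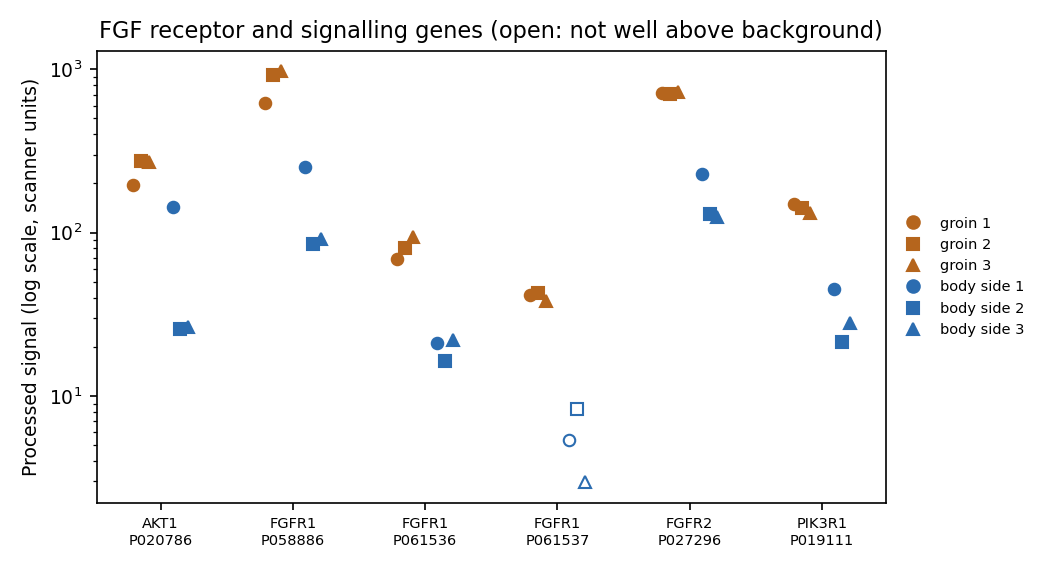
Processed signal, in scanner units on a log axis before normalization, of the 6 probes of other FGF pathway genes on the 3 groin (brown) and 3 body side (blue) arrays, with open markers where not well above background. FGFR1, FGFR2 and PIK3R1 lie lower on every body side array, as do 41.8% of all tested probes on unnormalized signals. AKT1 on body side replicate 1 is at 143, close to the groin arrays.

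Markers of cell types in skin also differed between the areas in part. Of 16 markers of dermal fibroblasts and papilla, 3 genes (DCN, BGN and MMP2) were found by 6 probes. Their mean log2 signal per array was 9.72 to 9.77 in groin and 8.68 to 9.23 in body side skin. Of the 6, 1 was called as lower, as were 4.88% of all tested probes. It was MMP2 A_70_P061386, well above background on no body side array, and no fold is read from it. The other MMP2 probes, at log2 fold changes of -1.07 and -1.37, and BGN, at 0.049, were not called. Decorin (DCN), a matrix proteoglycan of fibroblasts, had log2 fold changes of -0.46 and -0.23, neither called. Of 8 adipocyte and sebocyte markers, 4 genes were found by 6 probes, 2 of them called as lower (SCD and LPL), again beside 4.88% of all tested probes. The 4 probes with a value on every array had means of 6.55 to 6.98 against 4.69 to 5.45. Both called probes were well above background on no body side array, so they passed the filter through groin arrays alone. A second LPL probe was not called (adjusted p = 0.089 from limma). PPARG, well above background on all 6 arrays, was not called either, at a log2 fold change of -0.52. Of 14 follicle and wool fibre markers, 4 genes were found by 7 probes, and both K38 probes were called as higher, as were 3.53% of all tested probes. The means were 10.66 to 11.04 against 11.91 to 11.94. No other probe of this list was called. Those log2 fold changes were -0.042 and 0.11 for KRT25, 0.14 for KRT27 and 0.87 and 0.83 for PADI3. Of 10 muscle markers 2 genes were found by 3 probes, with CNN1 called as lower (4.88% of all tested probes). Of 9 blood and immune markers 5 were found by 9 probes, with haemoglobin HBB called as higher (3.53% of all tested probes) and CD4 at background on all arrays. The part of these cell types in the FGF7, FGF18 and SPRY4 differences was not tested.

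Among 499 probes of 359 other genes named by RefSeq and well above background on all 6 arrays, those most like FGF7 over the 6 arrays were BHLHE40 (Pearson r = 0.997), TFAP2A, a transcription factor of skin epithelium (r = 0.996), and CATHL3, an antimicrobial cathelicidin (r = 0.991). Of these CATHL3 was called, at a log2 fold change of -3.25. Those most like FGF18 were PR (r = 0.991), BAMBI, a decoy receptor for BMP and TGF-beta ligands (r = 0.990), and the BMP receptor BMPR1B (r = 0.990). None of them was called, and BAMBI had a log2 fold change of 1.80 (adjusted p = 0.071 from limma). These correlations, on quantile normalized values, describe only 6 arrays, which fall into the 2 skin areas.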

How the data were processed

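Total RNA of each skin sample was amplified, labelled with Cy3 and hybridized to a one-colour Agilent array. The authors deposited, for each array, the scanner output of Agilent Feature Extraction 10.5.1.1, whose processed signal is a background-corrected intensity, and a table of quantile normalized log2 values made with GeneSpring GX. The scanner intensities were used here. Control and outlier spots were dropped, replicate spots were averaged for each probe as log2 values, and quantile normalization was applied across arrays. A probe well above background on 1 array or more was tested with limma 3.58.1 in R 4.3.3 without a block. The test was tried on simulated data. Probe sequences were not used here.

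The members and gene lists were chosen with earlier results of these data known. All member probes are given, with pathway genes that have a probe, and the 3 genes most like FGF7 and FGF18 by Pearson correlation. RefSeq names came from assembly ARS-UI_Ramb_v3.0 and matched 734 probes. The normalization, background correction, floor, outlier spots, filters, test, array weights, replicate and slide position blocks, use of the deposited values and omission of single arrays were varied. Differences within slide rows and columns, shares of overlap on unnormalized signals and the fit without both arrays numbered 1 were added after seeing the data.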

Additional observations from a re-analysis of the deposited data

How the results depend on the processing

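The 5 member probes called as lower became 0 with normexp (3.20% of all probes called), 2 with adjusted p-values of the equal-variance test (2.44%), and 0 with a block for the replicate (0.058%), 0 for the slide row (0.374%) and 0 for the slide column (0.00%), so that calls were lost over the whole array and not at these probes alone. Leaving out single arrays gave 0 to 5. The 1 called as higher became 0 with the 75th percentile, 0 with the adjusted equal-variance test, 3 with array weights, where 24.2% of all probes were called, 0 with each of the 3 blocks and 3 without both arrays numbered 1, and 0 to 2 when single arrays were omitted. With normexp, which adds 50 to each signal and here used median spot signals, FGF7 kept an adjusted p of 0.013 by both probes but a fold under 2. The dim FGF10 probe among those called was A_70_P012571 instead of A_70_P068087 with the 75th percentile. Signs turned for FGF2 A_70_P039491 (-1.18) and A_70_P039492 (-1.16) with slide column, and for FGF10 A_70_P012572 with array weights (0.026), with slide row (0.0070), without both arrays numbered 1 (0.0017), with groin replicate 3 left out (0.027) and with body side replicate 1 left out (0.040). It stayed negative without each of the other 4 arrays, down to -0.18. FGF10 A_70_P068086, dim on every body side array, turned sign with slide column (0.094), and no fold is read from it. The signs of FGF7, FGF18 and SPRY4 held under every setting. The FGF18 to FGF7 difference, 3.32, was 1.98 with normexp. The cause of these changes was not tested. With 1 array left out, the share of all probes called ran from 0.0863% without groin replicate 3 to 21.3% without body side replicate 1. Without both arrays numbered 1 it was 25.8%.

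The labels do not say that a replicate number marks an animal. Deviations of same-numbered arrays correlated at 0.133, 0.073 and 0.057. Groin replicate 3 correlated with body side replicate 2 at 0.128, and groin replicate 2 with body side replicate 3 at 0.094. Arrays numbered 1 correlated with arrays of another number in the other area at -0.119 to -0.089. As deviations were taken from the mean of each area, they cancel out within it, and these correlations are not independent of each other. The arrays numbered 2 and 3 could not be matched from these values, so no pairing was used. With the replicate block in limma, the adjusted p was 0.053 for both FGF7 probes, 0.055 for FGF18, 0.092 and 0.089 for SPRY4, and 0.053 and 0.095 for FGF2, where 8 probes of the whole array were called. The FGF18 to FGF7 ratio was higher in body side skin in 3 of 3 same-numbered pairs (exact sign-flip permutation test, p = 0.25, the smallest possible). As the areas did not overlap for this ratio, any pairing would have given that result.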

Other observations

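The 2 arrays numbered 1 stood together in more than FGF2. At 56 of the 13924 tested probes both lay at least 2-fold below each of the other 4 arrays, and at 64 both lay at least 2-fold above. The count below was 0 for the arrays numbered 2 and 0 for those numbered 3. Of the 56, 4 probes had a RefSeq name, which were the 2 FGF2 probes, a probe of SLC2A5, a fructose transporter, and a probe of LOC443441. The log2 signal of SLC2A5 A_70_P051037 was 3.79, 5.61 and 5.64 in groin skin against 3.59, 6.12 and 6.0 in body side skin, replicates 1 to 3. The genes most like FGF2 over the 6 arrays, a search added after its values were seen, were LOC443441 (Pearson r = 0.995), TIMP3, an inhibitor of matrix metalloproteinases (r = 0.989), and ACACA, the acetyl-CoA carboxylase of fatty acid synthesis (r = 0.978). None of these 3 was called between areas. The labels do not give the sex or the animal of any array.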
